A study of Mus musculus with 6 samples.

Results

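The enzymes and binding proteins that hold reactive oxygen species, electrophiles and free metal ions in check were followed in mouse tibialis anterior (TA) muscle with and without Prox1 overexpression. The genes were chosen by name: every symbol that starts with Gst (glutathione S-transferases), Gpx (glutathione peroxidases), Prdx (peroxiredoxins) or Txn (thioredoxins, their reductases and thioredoxin-like genes), and Sod1, Sod2, Sod3, Cat, Gclc, Gclm, Gsr, Gss, Nqo1, Hmox1, Srxn1, Mt1 and Mt2. This gave 65 of the 19057 genes with a probe of 1 symbol. Gsr, Prdx5 and Prdx6 were named by no probe in the probe annotation used here and were not analysed.

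The overexpressing muscles (AAV8-Prox1, 3 muscles) had received an adeno-associated virus of serotype 8 encoding Prox1, a homeobox transcription factor. The control muscles (AAV8-mCherry, 3 muscles) had received the same type of virus encoding the red fluorescent reporter mCherry with a nuclear localization signal, which the methods place in the contralateral TA. All came from male C57Bl/6J mice aged 3 months, and the promoter of the vectors is not given in the sources used here. Whole-muscle RNA was hybridised to Illumina Mouse WG-6 v2 BeadChips, 1 array per muscle, and the comparison asks which transcripts differ once a fast muscle is made to express Prox1. The labels do not say which muscles share a mouse or whether each came from another animal, so p-values measure the spread between these samples.

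Superoxide made by mitochondria and oxidases is turned into hydrogen peroxide by superoxide dismutases, and the peroxide is then removed by catalase, glutathione peroxidases and peroxiredoxins. Glutathione peroxidases draw their electrons from glutathione, peroxiredoxins from thioredoxin, and both carriers are recharged with NADPH. Glutathione S-transferases couple glutathione to electrophiles such as lipid aldehydes, and metallothioneins bind zinc and copper through their cysteines. Many of these genes are known targets of the transcription factor NRF2 (Nfe2l2), which binds antioxidant response elements (ARE). Slow, oxidative fibres hold more mitochondria than fast, glycolytic fibres such as those that make up most of the TA.

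Values are log2 signals after quantile normalization, and each gene is represented by its brightest probe over the 6 arrays. The median of each array was 6.61, and a log2 signal of 7 was taken as the limit above background. Signals of different probes are not comparable as amounts of mRNA. Differences are AAV8-Prox1 minus AAV8-mCherry on the log2 scale, tested with limma, and a gene was called where the Benjamini-Hochberg adjusted p over all 45281 probes was under 0.05. Of the 65 genes, 37 had a mean signal of 7 or more. The other 28 had means of 6.52 to 6.98, and none of them was called.

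Markers of the tissue were read first. All 11 skeletal muscle markers were above 7. Of these 4 were called lower (Mylpf, Tnnt3, Tnni2 and Myh4) and 1 higher (Des). The other 6 were not called, among them Ckm (-0.04) and Acta1 (0.07). The mean of the 11 was 13.76 to 13.91 in AAV8-Prox1 and 14.08 to 14.10 in AAV8-mCherry muscles, without overlap. Mylpf, Tnnt3, Tnni2 and Myh4 are genes of fast fibres. So are Tnnc2 (-0.09), Actn3 (0.02), Pvalb (-0.05) and Atp2a1 (0.00), which were not called. The mean was not taken as a measure of muscle content, and what lowered it was not tested. In addition 7 of 8 slow fibre markers were called higher in AAV8-Prox1 muscles, among them Tnni1, which was under 7 in both groups. Myh7 was not called (0.50, adjusted p = 0.0959, limma), and its control readings were under 7. Both probes of Prox1 itself were under 7 on every array, at 6.54 ± 0.05 in AAV8-Prox1 and 6.58 ± 0.04 in AAV8-mCherry muscles for the first, and at 6.49 ± 0.06 in AAV8-Prox1 and 6.55 ± 0.06 in AAV8-mCherry muscles for the other (SD, n = 3 each). Whether those probes lie inside the sequence carried by the vector is not given in the sources used here, so they do not check the labels. Of 13 macrophage markers 4 were above 7. Called higher were C1qc and Mrc1 among these 4, and Cd14, which was under 7 in both groups. The mean over the 4 was 7.91 to 8.16 in AAV8-Prox1 and 7.36 to 7.68 in AAV8-mCherry muscles. Of 9 fibroblast markers 6 were above 7 and 2 were called higher (mean of 8.92 to 9.06 in AAV8-Prox1 and 8.15 to 8.60 in AAV8-mCherry muscles). Of 10 blood endothelial markers 9 were above 7 and 2 were called lower (mean of 8.94 to 9.16 in AAV8-Prox1 and 9.30 to 9.62 in AAV8-mCherry muscles). All 5 neutrophil and all 5 adipocyte markers were under 7. Beside these marker counts, 13.0% of genes above 7 on the array were called higher and 11.3% lower. Over all genes the shares were 5.23% higher and 4.21% lower. In whole muscle, fewer cells of a type and less RNA per cell cannot be told apart, and the part of these cell types in the results was not tested.

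The stretches of DNA just upstream of 7 genes are printed because they carry, or lack, letter matches to the sites through which antioxidant and metal responses are known to act. Each is the 250 bases before the annotated start in RefSeq on GRCm38.p6. They are Srxn1 (chr2:152105274-152105523, plus strand), Gstm2 (chr3:107986421-107986670, minus strand), Gpx1 (chr9:108338830-108339079, plus strand), Prdx1 (chr4:116685349-116685598, plus strand), Sod1 (chr16:90220512-90220761, plus strand), Mt1 (chr8:94178839-94179088, plus strand) and Mt2 (chr8:94172368-94172617, plus strand). Srxn1, Gstm2 and Gpx1 showed the largest differences among the called genes, Prdx1 and Sod1 carry a match to the ARE, and Mt1 and Mt2 are the metal-regulated pair. Capitals mark matches on either strand to the ARE core TGACNNNGC, to the metal response element (MRE) core TGCACNC or TGCGCNC, or to the AP-1 site TGANTCA, which can overlap an ARE.
Srxn1: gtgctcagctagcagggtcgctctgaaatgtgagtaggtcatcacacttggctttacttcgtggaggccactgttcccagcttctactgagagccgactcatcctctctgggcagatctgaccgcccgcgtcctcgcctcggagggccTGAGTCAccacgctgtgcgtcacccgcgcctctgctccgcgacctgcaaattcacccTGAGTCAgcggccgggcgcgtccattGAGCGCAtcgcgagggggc
Gstm2: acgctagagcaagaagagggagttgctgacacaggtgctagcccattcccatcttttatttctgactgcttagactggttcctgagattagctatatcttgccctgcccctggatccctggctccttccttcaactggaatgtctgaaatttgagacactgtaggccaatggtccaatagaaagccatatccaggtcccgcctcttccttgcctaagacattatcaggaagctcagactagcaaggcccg
Gpx1: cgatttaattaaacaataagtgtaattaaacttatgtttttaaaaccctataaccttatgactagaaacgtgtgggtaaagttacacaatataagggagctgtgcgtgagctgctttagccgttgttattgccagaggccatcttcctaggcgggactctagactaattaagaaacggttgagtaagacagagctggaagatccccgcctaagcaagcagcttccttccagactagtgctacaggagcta
Prdx1: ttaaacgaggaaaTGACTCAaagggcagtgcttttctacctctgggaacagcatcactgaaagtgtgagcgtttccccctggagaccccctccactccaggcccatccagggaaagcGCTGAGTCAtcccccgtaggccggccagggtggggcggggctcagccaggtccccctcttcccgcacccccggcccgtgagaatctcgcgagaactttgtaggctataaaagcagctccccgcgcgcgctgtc
Sod1: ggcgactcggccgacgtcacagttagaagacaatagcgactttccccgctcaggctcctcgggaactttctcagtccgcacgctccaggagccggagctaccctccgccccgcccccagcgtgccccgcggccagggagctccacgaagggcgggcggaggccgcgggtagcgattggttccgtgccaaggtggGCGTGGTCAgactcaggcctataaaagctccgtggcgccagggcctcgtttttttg
Mt1: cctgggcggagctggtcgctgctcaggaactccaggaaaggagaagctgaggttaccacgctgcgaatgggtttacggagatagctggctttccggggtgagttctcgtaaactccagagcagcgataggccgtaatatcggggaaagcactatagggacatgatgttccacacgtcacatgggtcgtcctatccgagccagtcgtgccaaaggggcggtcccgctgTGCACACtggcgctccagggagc
Mt2: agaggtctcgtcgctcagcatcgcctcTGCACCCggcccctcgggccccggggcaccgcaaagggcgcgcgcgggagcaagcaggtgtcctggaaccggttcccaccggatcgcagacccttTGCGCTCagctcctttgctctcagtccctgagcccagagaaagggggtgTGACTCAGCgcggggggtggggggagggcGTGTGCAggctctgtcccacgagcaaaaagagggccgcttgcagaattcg

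The Srxn1 window held AP-1 letters at -102 and -45 and MRE letters at -19, counted from -1 at the base before the start. It held no match to the ARE core, although the letters from -45 (TGAGTCAGC) come close to it. Prdx1 had ARE letters at -133 that overlapped AP-1 letters at -131, and further AP-1 letters at -237. Sod1 had ARE letters at -56. Mt2 had ARE letters and AP-1 letters that both began at -79, with MRE letters at -223, -128 and -50, and Mt1 had MRE letters at -23. The windows of Gstm2 and Gpx1 held none of these motifs. A window was found for 58 of the 65 genes. Of these, 11 (19.0%) held the ARE core, against 11.5% of the windows of all 27025 genes with a start. The MRE core was in 17 (29.3%), against 23.8% of all windows, and the AP-1 site in 6 (10.3%), against 7.82%. In windows of protein-coding genes alone the MRE share was 26.9%, a smaller gap, and the AP-1 share was 7.19%. The AP-1 site was added after the sequences had been seen. None of the 8 called genes held the ARE core, and the 5 genes above 7 that did (Gclm, Gstm5, Prdx1, Sod1 and Txndc5) were not called. With 11.5% of all windows holding it and 24.3% of genes above 7 called, so few genes cannot show a link either way. These letter matches are descriptions and not evidence that a factor binds. Only the strict ARE core was searched, so a window without a match is not shown to lack an ARE. Bases outside the windows were not searched for any motif. The MRE matches of Mt1 and Mt2 therefore hold for these windows only and do not compare the MRE content of the genes.

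Over all 65 genes, 8 were called. Gss, Prdx2 and Srxn1 were higher in AAV8-Prox1 muscles, and Gpx1, Gpx4, Gpx7, Gstm2 and Prdx3 were lower. This is 12.3% of the 65 genes, beside 9.44% of all 19057 genes on the array. The share called higher was 4.62% (5.23% over all genes) and the share called lower was 7.69% (4.21% over all genes). Among the 37 genes above 7, 21.6% were called, beside 24.3% of the 6733 such genes on the array, with 8.11% higher (13.0% over the array) and 13.5% lower (11.3% over the array). The groups did not overlap in 15 of the 65 genes (23.1%), beside 23.3% over the array, and in 35.1% of the 37 genes above 7, beside 43.1% of such genes on the array. The median difference of the 37 genes was 0.01, as it was over all genes above 7. Of the 8 differences 3 reached 1 on the log2 scale and 5 were under 0.5.

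**Figure D1:**
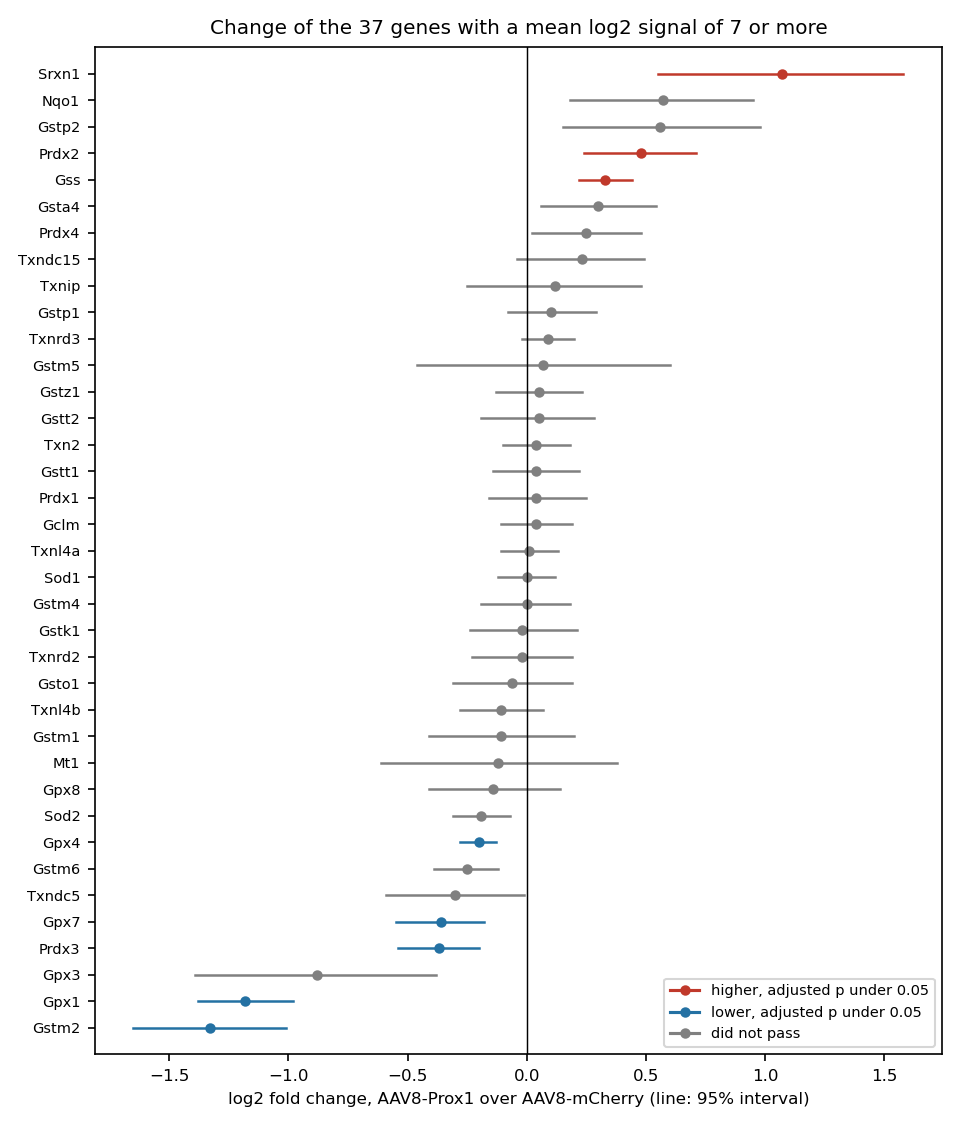
Difference between AAV8-Prox1 and AAV8-mCherry muscles on the log2 scale (x axis) for the 37 genes with a mean signal of 7 or more, in order of the difference. Points are the fitted differences, bars their 95% intervals, and colour marks the 8 called genes. Gstm2 and Gpx1 lie furthest to the left, at -1.33 and -1.18, and Srxn1 furthest to the right, at 1.07.

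Of the 8 glutathione peroxidases 3 were called lower in AAV8-Prox1 muscles (Gpx1, Gpx4 and Gpx7) and 5 were not called, beside 4.21% called lower over all genes and 11.3% over genes above 7. The 5 above 7 had differences of -1.18 to -0.14 and a median of -0.36, beside 0.01 over all genes above 7, and no set test was run. Gpx1, the selenium enzyme that removes hydrogen peroxide in the cytosol and mitochondria, had the largest difference of the group. Its probe (ILMN_1241367) read 10.56, 10.71 and 10.48 in AAV8-Prox1 muscles, against 11.88, 11.81 and 11.59 in AAV8-mCherry muscles. The groups lay far apart, with every AAV8-Prox1 muscle below every AAV8-mCherry muscle. The difference was -1.18 ± 0.09 (SE, n = 3 each), with a 95% interval of -1.38 to -0.98 and an adjusted p of 0.000416 in limma. This is a 2.26-fold lower signal, and it passed the threshold with any 1 muscle left out (-1.26 to -1.12).

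Gpx4 reduces lipid hydroperoxides inside membranes and is the peroxidase that guards against ferroptosis. It read 13.20, 13.16 and 13.18 in AAV8-Prox1 muscles, against 13.38, 13.36 and 13.41 in AAV8-mCherry muscles. The step was small and the muscles of each group were tightly grouped, so the groups did not overlap. The difference was -0.20 ± 0.03 (SE, n = 3 each; adjusted p = 0.0125, limma), 1.15-fold lower. Another probe of Gpx4 read 10.43, 10.28 and 10.28 in AAV8-Prox1 muscles, against 10.70, 10.49 and 10.77 in AAV8-mCherry muscles (difference -0.32, adjusted p = 0.0561). It pointed the same way but was not called, and the gene's dimmest probe was under 7. The call on the brightest probe was lost without AAV8-Prox1 replicate 2 (adjusted p = 0.0524), with a variance prior that follows the signal (0.229) and with dim probes filtered out (0.0665).

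Gpx7, a cysteine peroxidase of the endoplasmic reticulum, read 7.59, 7.70 and 7.83 in AAV8-Prox1 muscles, against 7.99, 8.21 and 8.01 in AAV8-mCherry muscles. All 6 readings were near background, and the groups did not overlap. The difference of -0.36 ± 0.08 (SE, n = 3 each; adjusted p = 0.0369, limma) was 1.29-fold, and it stayed under 0.05 in 1 of 6 fits that left out a muscle, the one without AAV8-Prox1 replicate 3 (the others gave 0.0534 to 0.121).

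Gpx3, the secreted plasma peroxidase, was not called but spread widely. It read 10.76, 10.64 and 10.29 in AAV8-Prox1 muscles, against 11.28, 11.95 and 11.11 in AAV8-mCherry muscles. The groups did not overlap, and AAV8-mCherry replicate 2 was the highest of all muscles. The difference was -0.88 ± 0.22 (SE, n = 3 each; adjusted p = 0.0595, limma), and -0.63 (adjusted p = 0.0526) without that muscle. Of the alternatives in the choice of probe, variance prior and filter, Gpx3 passed with dim probes filtered out before the fit (0.00639). Gpx8, the other peroxidase of the endoplasmic reticulum, had 3 probes above 7 with differences of -0.14, -0.12 and 0.11, none of them called. Gpx2, Gpx5 and Gpx6, known from gut epithelium, epididymis and olfactory epithelium, were under 7.

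**Figure D2:**
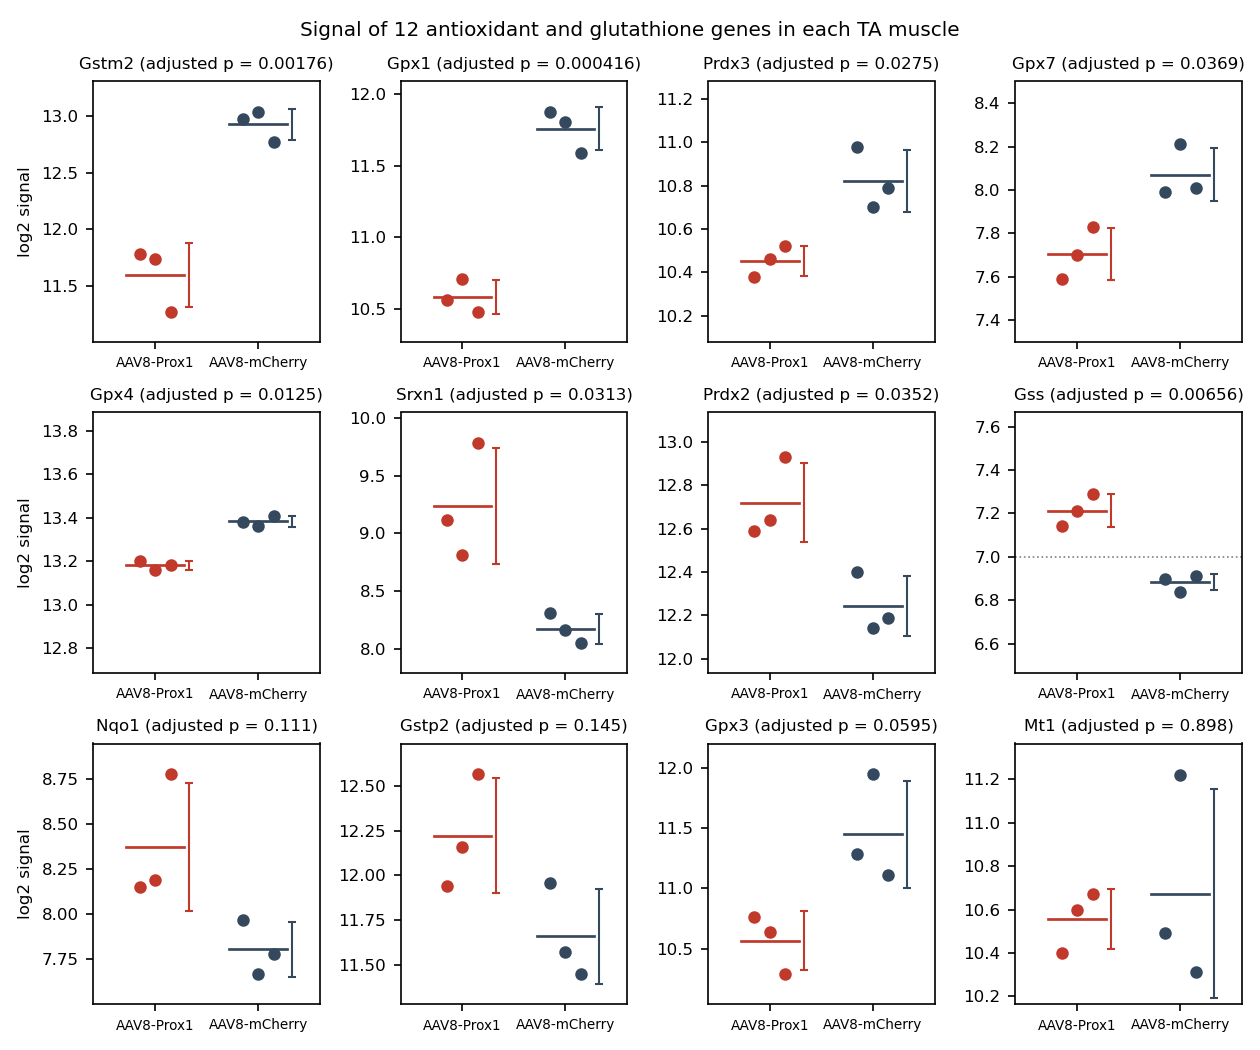
Log2 signal (y axis) of 12 genes in each muscle, AAV8-Prox1 left and AAV8-mCherry right, with points for single muscles, horizontal lines for group means and bars for the SD (n = 3 each). The axes do not start at 0 and differ in range, the dotted line for Gss is the limit of 7, and the groups are apart in every gene shown except Gstp2 and Mt1.

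Of the 23 glutathione S-transferases 1 was called, a member of the 7-gene mu class, beside 9.44% called over all genes. Gstm2, a mu transferase that conjugates glutathione to electrophiles, read 11.78, 11.74 and 11.27 in AAV8-Prox1 muscles on its brightest probe (ILMN_2624854), against 12.97, 13.04 and 12.77 in AAV8-mCherry muscles. The lowest AAV8-mCherry reading stood well above the highest AAV8-Prox1 reading. The difference was -1.33 ± 0.14 (SE, n = 3 each), with a 95% interval of -1.65 to -1.01 and an adjusted p of 0.00176 in limma, 2.51-fold lower.

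Both of the other Gstm2 probes were also called. The next brightest read 11.60, 11.55 and 11.20 in AAV8-Prox1 muscles, against 12.73, 12.65 and 12.52 in AAV8-mCherry muscles, a difference of -1.18 (adjusted p = 0.00101). The dimmest read 9.53, 9.34 and 9.13 in AAV8-Prox1 muscles, against 11.31, 10.81 and 10.74 in AAV8-mCherry muscles, a difference of -1.62 (adjusted p = 0.00141). No reading of either group overlapped on any of the 3 probes, and on each of them AAV8-Prox1 replicate 3 was the lowest. The brightest probe also passed with any 1 muscle left out (-1.42 to -1.17).

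None of the other mu genes was called. Gstm1 had a difference of -0.11 (95% interval -0.41 to 0.20), Gstm4 of -0.00 (-0.19 to 0.18) and Gstm5 of 0.07 (-0.46 to 0.60). Gstm6 read 6.92, 6.96 and 7.06 in AAV8-Prox1 muscles, against 7.32, 7.25 and 7.13 in AAV8-mCherry muscles, a difference of -0.25 with an adjusted p of 0.0505 in limma. That value lies at the threshold and at background, and it was called without AAV8-mCherry replicate 3 (0.0335) while the other fits that left out a muscle gave 0.0525 to 0.162. Gstm3 and Gstm7 were under 7. The mu genes are similar in sequence, and cross-hybridisation between them was not tested, since no probe sequences were used.

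In the pi class, Gstp1, a broad detoxifying transferase, read 12.25, 12.47 and 12.55 in AAV8-Prox1 muscles, against 12.41, 12.27 and 12.28 in AAV8-mCherry muscles. The groups overlapped (difference 0.10, adjusted p = 0.661), and its next brightest probe gave 0.21 (adjusted p = 0.362). Its near-identical neighbour Gstp2 read 11.94, 12.16 and 12.57 in AAV8-Prox1 muscles, against 11.96, 11.57 and 11.45 in AAV8-mCherry muscles. AAV8-Prox1 replicate 3 was the highest and AAV8-Prox1 replicate 1 sat level with the top control. The difference of 0.56 was not called (adjusted p = 0.145, limma) except with dim probes filtered out (0.0259). Gstp3 was under 7. How far probes of Gstp1 and Gstp2 read each other's transcript is uncertain.

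Among the other classes, Gsta4, an alpha transferase that clears the lipid aldehyde 4-hydroxynonenal, read 8.39, 8.57 and 8.77 in AAV8-Prox1 muscles, against 8.39, 8.13 and 8.31 in AAV8-mCherry muscles. The lowest AAV8-Prox1 reading equalled the highest of AAV8-mCherry, and the difference of 0.30 was not called (adjusted p = 0.182, limma). Gstk1, the mitochondrial and peroxisomal kappa enzyme, read 11.99, 11.94 and 12.14 in AAV8-Prox1 muscles, against 12.11, 12.19 and 11.82 in AAV8-mCherry muscles, a difference of -0.02 (95% interval -0.24 to 0.21). Gsto1, which reduces dehydroascorbate, and Gstz1, an enzyme of tyrosine breakdown, had differences of -0.06 (-0.31 to 0.19) and 0.05 (-0.13 to 0.23), and were not called either. The theta genes Gstt1 and Gstt2 both averaged 7.21 and differed by no more than 0.05. Gsta1, Gsta2, Gsta3, Gsto2, Gstt3, Gstt4 and Gstcd were under 7.

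Among peroxiredoxins and their repair enzyme, calls went in both directions. All 5 genes of this group were above 7, 2 were called higher and 1 lower, beside 13.0% higher and 11.3% lower over genes above 7. The calls on Srxn1, Prdx2 and Prdx3 were lost with the replicate number as a block. Srxn1 encodes sulfiredoxin, which restores peroxiredoxins that peroxide has over-oxidised. Its brightest probe (ILMN_2677772) read 9.12, 8.81 and 9.79 in AAV8-Prox1 muscles, against 8.31, 8.16 and 8.05 in AAV8-mCherry muscles. The groups did not overlap, but AAV8-Prox1 replicate 3 stood well above the other AAV8-Prox1 muscles, and the range of 0.98 within AAV8-Prox1 was the widest of any of the 37 genes in either group. The difference was 1.07 ± 0.22 (SE, n = 3 each), with a 95% interval of 0.55 to 1.58 and an adjusted p of 0.0313 in limma, 2.09-fold higher.

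The other Srxn1 probes kept the pattern without a call. The next brightest read 8.71, 8.39 and 9.33 in AAV8-Prox1 muscles, against 8.08, 7.92 and 7.90 in AAV8-mCherry muscles (difference 0.84, adjusted p = 0.0616). The dimmest, near background, had a difference of 0.37 (adjusted p = 0.0754). AAV8-Prox1 replicate 3 was again the highest on both. Without that muscle the brightest probe was still called (0.79, adjusted p = 0.0119), as it was without AAV8-Prox1 replicate 2 (0.0181). It was not called without AAV8-Prox1 replicate 1 (0.0728) or without AAV8-mCherry replicate 1, 2 or 3 (0.0631, 0.0859 and 0.11).

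**Figure D3:**
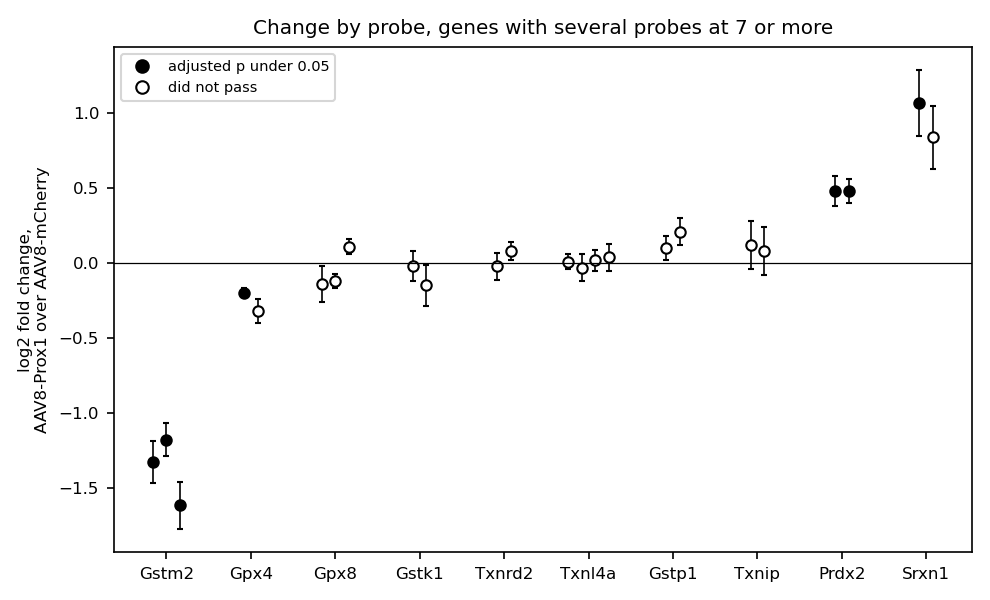
Difference between AAV8-Prox1 and AAV8-mCherry muscles on the log2 scale (y axis) for each probe with a mean signal of 7 or more, in the genes that have several such probes (x axis). Points are fitted differences, bars their SE, and filled points were called. The 3 probes of Gstm2 lie below -1, and those of Prdx2 and Srxn1 lie above 0.

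Prdx2, a cytosolic peroxiredoxin abundant in red blood cells, read 12.59, 12.64 and 12.93 in AAV8-Prox1 muscles, against 12.40, 12.14 and 12.19 in AAV8-mCherry muscles. The groups did not overlap, with AAV8-Prox1 replicate 3 the highest. The difference was 0.48 ± 0.10 (SE, n = 3 each; adjusted p = 0.0352, limma), 1.39-fold higher. Another probe had the same difference of 0.48 (adjusted p = 0.0114), with 7.92, 7.78 and 8.05 in AAV8-Prox1 muscles and 7.55, 7.36 and 7.40 in AAV8-mCherry muscles. Of 5 erythroid markers 3 were above 7 and none was called, and their mean was 10.67 to 10.80 in AAV8-Prox1 and 10.76 to 11.15 in AAV8-mCherry muscles. The brightest Prdx2 probe was called only in the fits without AAV8-Prox1 replicate 1 (0.0453) or AAV8-mCherry replicate 1 (0.0296) when a muscle was left out, and the other 4 gave 0.056 to 0.119.

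Prdx3, the peroxiredoxin of the mitochondrial matrix, went the other way. It read 10.38, 10.46 and 10.52 in AAV8-Prox1 muscles, against 10.98, 10.70 and 10.79 in AAV8-mCherry muscles. The groups did not overlap. The difference was -0.37 ± 0.07 (SE, n = 3 each; adjusted p = 0.0275, limma), 1.29-fold lower. The call was lost without AAV8-Prox1 replicate 1 (0.0929), AAV8-Prox1 replicate 2 (0.0901) or AAV8-mCherry replicate 3 (0.073).

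Prdx1 and Prdx4 were not called. Prdx1, a cytosolic enzyme and a known NRF2 target, read 11.74, 11.40 and 11.70 in AAV8-Prox1 muscles, against 11.64, 11.51 and 11.56 in AAV8-mCherry muscles, with overlapping groups and a 95% interval of -0.16 to 0.25. Prdx4, the peroxiredoxin of the endoplasmic reticulum, read 8.83, 8.89 and 8.95 in AAV8-Prox1 muscles, against 8.80, 8.39 and 8.73 in AAV8-mCherry muscles. The groups were just apart, and the difference of 0.25 had an adjusted p of 0.277 in limma.

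No gene of the thioredoxin system was called. Txnip, the protein that binds and inhibits thioredoxin and is known to follow glucose supply, read 12.62, 13.31 and 13.04 in AAV8-Prox1 muscles, against 12.76, 12.88 and 12.98 in AAV8-mCherry muscles. The AAV8-Prox1 muscles bracketed the controls, with replicate 1 the lowest and replicate 2 the highest of all 6. The difference was 0.12 ± 0.16 (SE, n = 3 each; adjusted p = 0.841, limma), and another probe gave 0.08 with the same order of AAV8-Prox1 muscles. Txn2, the mitochondrial thioredoxin, and Txnrd2, its reductase, differed by 0.04 (95% interval -0.10 to 0.18) and -0.02 (-0.23 to 0.19). Txnrd3, a reductase known from testis, differed by 0.09 near background. The cytosolic pair was not above background: all 3 Txn1 probes and the Txnrd1 probe were under 7.

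The remaining Txn-named genes are a mixed set, 12 in all, of which 4 were above 7 and none was called. Txndc15 read 11.26, 10.75 and 10.97 in AAV8-Prox1 muscles, against 10.77, 10.72 and 10.81 in AAV8-mCherry muscles, with AAV8-Prox1 replicate 1 the highest (difference 0.23, adjusted p = 0.417). Txndc5, a disulfide isomerase of the endoplasmic reticulum, had a difference of -0.30 (adjusted p = 0.289). Txnl4a and Txnl4b, which carry the name by fold and belong to the spliceosome, differed by 0.01 and -0.11. Txndc2, Txndc8, Txndc9, Txndc11, Txndc12, Txndc16, Txndc17 and Txnl1 were under 7.

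No superoxide dismutase was called. Sod1, the cytosolic copper and zinc enzyme, read 11.63, 11.60 and 11.65 in AAV8-Prox1 muscles, against 11.73, 11.60 and 11.55 in AAV8-mCherry muscles. The groups overlapped fully, and the difference of 0.00 had a 95% interval of -0.12 to 0.12. Sod2, the manganese enzyme of the mitochondrial matrix, read 11.86, 11.83 and 11.74 in AAV8-Prox1 muscles, against 12.02, 11.92 and 12.07 in AAV8-mCherry muscles. Its groups were apart by a small step, with a difference of -0.19 that was not called (adjusted p = 0.0828, limma), except without AAV8-mCherry replicate 2 (0.0496). Catalase (Cat), which splits hydrogen peroxide in peroxisomes, read 6.99, 7.04 and 7.10 in AAV8-Prox1 muscles, against 6.98, 6.86 and 6.92 in AAV8-mCherry muscles, at the limit of detection (difference 0.12, adjusted p = 0.229). Sod3, the extracellular enzyme, was under 7.

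Of the 3 genes of glutathione synthesis, 1 was called, beside 9.44% over all genes. Gss, glutathione synthetase, which carries out the last step, read 7.14, 7.21 and 7.29 in AAV8-Prox1 muscles, against 6.90, 6.84 and 6.91 in AAV8-mCherry muscles. Every control reading was under 7, so the difference of 0.33 ± 0.05 (SE, n = 3 each; adjusted p = 0.00656, limma) is given as an at least 1.16-fold higher signal. It was called with any 1 muscle left out (0.29 to 0.37). Its other probes were near background as well: 1 was called (0.25, adjusted p = 0.0376), 1 was not (0.28, adjusted p = 0.0574), and the dimmest was under 7 in both groups. Gclm, the regulatory subunit of the rate-limiting ligase, read 7.52, 7.38 and 7.56 in AAV8-Prox1 muscles, against 7.55, 7.36 and 7.43 in AAV8-mCherry muscles, with overlapping groups and a 95% interval of -0.11 to 0.19. Gclc, the catalytic subunit, was under 7.

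Nqo1, a quinone reductase and one of the most used readouts of NRF2, read 8.15, 8.19 and 8.78 in AAV8-Prox1 muscles, against 7.97, 7.67 and 7.78 in AAV8-mCherry muscles. The groups were apart, and AAV8-Prox1 replicate 3 was again well above the rest. The difference of 0.57 ± 0.16 (SE, n = 3 each) was not called (adjusted p = 0.111, limma), but it passed with a variance prior that follows the signal (0.0167) and with dim probes filtered out (0.0188). In the fits that left out a muscle the adjusted p was 0.0763 to 0.27. Hmox1, the inducible haem oxygenase, was under 7.

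Neither Mt1 nor Mt2 was called. Mt1, a metallothionein inducible by zinc and by glucocorticoids, read 10.40, 10.60 and 10.67 in AAV8-Prox1 muscles, against 10.49, 11.22 and 10.31 in AAV8-mCherry muscles. The groups overlapped, with AAV8-mCherry replicate 2 the highest and AAV8-mCherry replicate 3 the lowest of all. The difference was -0.12 ± 0.21 (SE, n = 3 each; adjusted p = 0.898, limma), and 0.16 without AAV8-mCherry replicate 2, so no direction can be given. The probe of Mt2 was under 7 on every array, at a mean of 6.71.

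**Figure D4:**
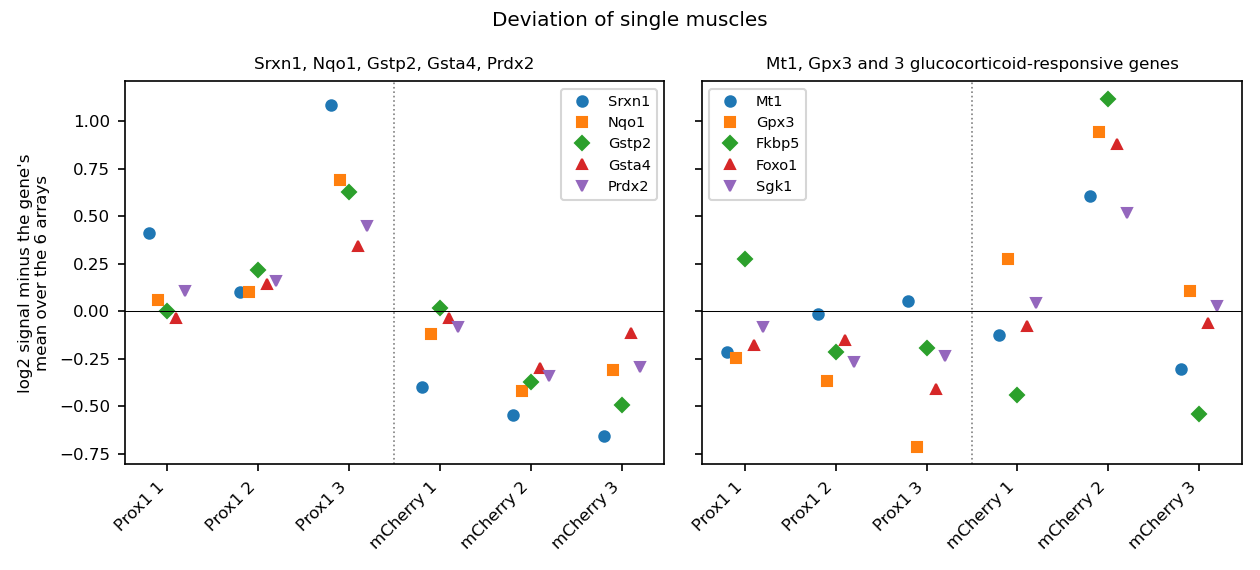
Log2 signal minus the mean of each gene over the 6 arrays (y axis) in each muscle, AAV8-Prox1 left and AAV8-mCherry right. The left panel shows AAV8-Prox1 replicate 3 above its group for Srxn1, Nqo1, Gstp2, Gsta4 and Prdx2, and the right panel shows AAV8-mCherry replicate 2 above its group for Mt1, Gpx3 and the glucocorticoid-responsive genes Fkbp5, Foxo1 and Sgk1.

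Single muscles stood apart in several genes, which were picked for the plot of deviations after their values had been seen. AAV8-Prox1 replicate 3 was the highest AAV8-Prox1 muscle in 12 of the 20 genes above 7 with a positive difference, against 33.8% of 3500 such genes on the array. In AAV8-mCherry replicate 2, some known glucocorticoid-responsive genes were high together with Mt1 and Gpx3. Of the 9 such genes above 7, 5 (Fkbp5, Foxo1, Sgk1, Per1 and Klf9) were higher there than in both other AAV8-mCherry muscles by more than 0.1, Tsc22d3 and Zbtb16 were not, and Fbxo32 and Trim63 were highest in AAV8-mCherry replicate 1. Fkbp5, a chaperone of the glucocorticoid receptor, read 8.05, 7.56 and 7.58 in AAV8-Prox1 muscles, against 7.33, 8.89 and 7.23 in AAV8-mCherry muscles. Foxo1, a transcription factor of the fasting response, read 8.01, 8.04 and 7.78 in AAV8-Prox1 muscles, against 8.11, 9.07 and 8.13 in AAV8-mCherry muscles. The mean over the 9 such genes above 7 was 9.54 to 9.62 in AAV8-Prox1 muscles, and 9.72, 10.05 and 9.60 in AAV8-mCherry replicates 1, 2 and 3. What set these muscles apart was not tested. The median range within a group was 0.24 (AAV8-Prox1) and 0.26 (AAV8-mCherry) over the 37 genes, beside 0.18 (AAV8-Prox1) and 0.20 (AAV8-mCherry) over all genes above 7.

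**Figure D5:**
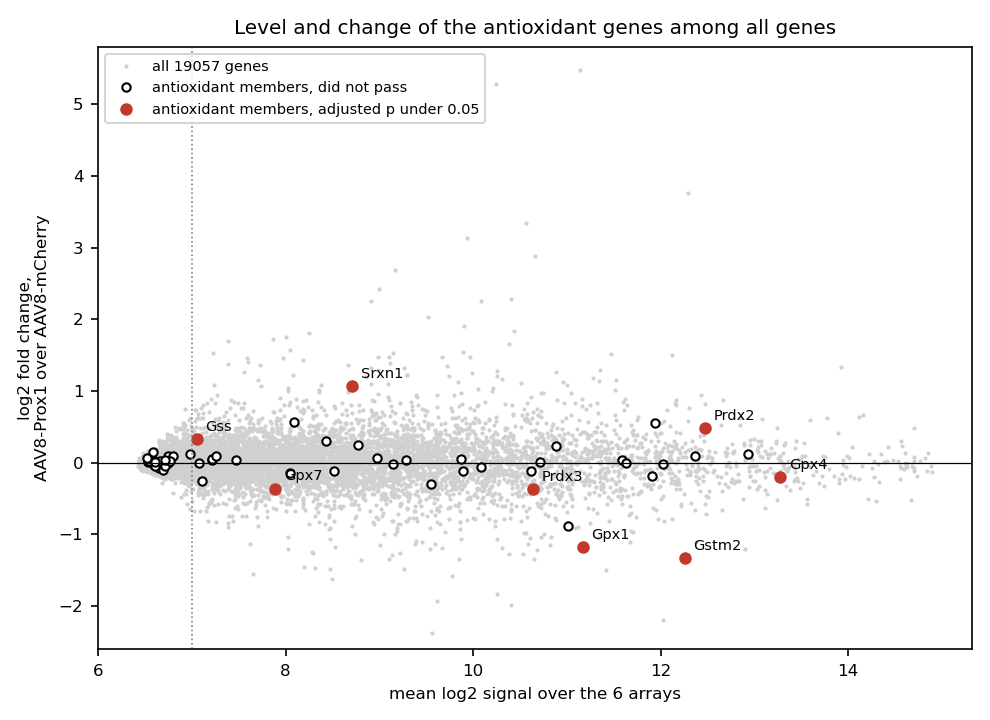
Mean log2 signal over the 6 arrays (x axis) against the difference between AAV8-Prox1 and AAV8-mCherry muscles (y axis, log2), with the 65 genes drawn over all 19057 genes in grey. The 8 called genes are filled and named, the dotted line is the limit of 7, and the 28 genes left of it lie close to 0 on the y axis.

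Of the 29 genes above 7 that were not called, differences ran between -0.88 and 0.57, and 22 had a 95% interval that stayed within 0.5 of 0. The 7 whose interval reached further were Gpx3, Gsta4, Gstm5, Gstp2, Mt1, Nqo1 and Txndc5, so larger changes in these remain possible at 3 muscles per group.

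Genes that surround these enzymes were read from 9 further lists, with 130 genes in all, of which 10 were called higher and 10 lower. This is 15.4%, beside 9.44% over the array, with 7.69% in each direction beside 5.23% higher and 4.21% lower. Of the 77 above 7, 22.1% were called, beside 24.3% of such genes on the array. Among regulators (11 genes), Sqstm1, the autophagy receptor p62 that binds KEAP1, was higher (0.74, adjusted p = 0.0196) and Ppargc1a, a coactivator of mitochondrial and antioxidant genes, was lower (-0.86, adjusted p = 0.00974). Nfe2l2 itself differed by 0.19 (adjusted p = 0.205) and its inhibitor Keap1 by -0.34 (adjusted p = 0.0856), neither called. Among 15 other NRF2 targets, Blvrb, a biliverdin and flavin reductase, was higher by 0.48 (adjusted p = 0.00305), Ephx1, the microsomal epoxide hydrolase, by 0.48 (0.033) and Cbr1, a carbonyl reductase, by 0.30 (0.0453), and the exporter Abcc4 was lower by 0.54 (difference -0.54, adjusted p = 0.000324). In the list of 13 genes of NADPH supply only Me2, a mitochondrial malic enzyme whose control readings were under 7, was called (0.45, adjusted p = 0.0097).

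In the list of 23 other glutathione genes 2 were called lower and none higher, beside 4.21% lower and 5.23% higher over all genes. Both were glutaredoxins, which use glutathione to reduce protein disulfides, and the list's other glutaredoxins were not called: Glrx2 differed by -0.03 (adjusted p = 0.876) and Glrx3 was under 7. Glrx read 9.25, 9.60 and 9.17 in AAV8-Prox1 muscles, against 10.35, 10.47 and 10.38 in AAV8-mCherry muscles, with a wide gap between the groups. The difference was -1.06 ± 0.10 (SE, n = 3 each; adjusted p = 0.00143, limma), 2.08-fold lower. Glrx5, the mitochondrial glutaredoxin of iron-sulfur cluster assembly, was lower by a smaller step (-0.34, adjusted p = 0.0148). Chac1, of the same list, pointed up but was not called (0.97, adjusted p = 0.0534, limma). It read 11.25, 11.14 and 11.32 in AAV8-Prox1 muscles, against 10.63, 10.52 and 9.66 in AAV8-mCherry muscles, without overlap.

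The list of 20 selenoproteins, methionine sulfoxide reductases and related genes held 2 called genes in each direction, beside 5.23% higher and 4.21% lower over all genes. Sesn1, a stress-induced sestrin, was higher (0.71, adjusted p = 0.00116), as was Pon2, a lactonase of mitochondria and endoplasmic reticulum (0.74, adjusted p = 0.00249). Msrb2, the mitochondrial methionine sulfoxide reductase, was lower (-0.99, adjusted p = 0.00522). Sephs2, which makes the selenium donor for selenoproteins, was also lower (-0.33, adjusted p = 0.0104), with readings near background. Of 12 oxidant producers and uncoupling proteins, Nox4, a hydrogen peroxide-producing oxidase, was higher with control readings under 7 (0.56, adjusted p = 0.00232), and Xdh, xanthine dehydrogenase, was lower (-0.36, adjusted p = 0.0484).

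In the remaining lists, Tfrc, the transferrin receptor, was lower among 16 genes of metal handling (-0.76, adjusted p = 0.0218), where the only gene called higher was another metallothionein, Mt3 (0.19, adjusted p = 0.0154), which was under 7 in both groups. Mlxip, a glucose-sensing transcription factor, was lower (-0.38, adjusted p = 0.00429) in a list of 6 genes. The others were Mlxipl, Mlx and the arrestin-domain genes Arrdc1, Arrdc2 and Arrdc4. Of the 14 glucocorticoid-responsive genes, Tsc22d3 was higher (0.31, adjusted p = 0.0161) and the atrophy ligase Fbxo32 lower (-1.13, adjusted p = 0.0166).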

How the data were processed

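RNA from 6 TA muscles was measured on Illumina WG-6 v2 arrays. The log2 values used here were deposited by the authors, who worked in GenomeStudio and quantile-normalized the signals in Chipster; they carry 2 decimals. A table of raw signals held 12 per-sample columns whose names matched no sample, and it was not used, so background correction, detection and chip effects were not examined. Of 45281 probes, 34885 named 1 gene symbol, 18 several and 10378 none. The gene IDs of 34807 probes were found in the RefSeq gene table, where 0 symbols differed.

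The 2 groups were tested in R 4.3.3 with limma 3.58.1 (lmFit, eBayes, Benjamini-Hochberg over all probes, threshold 0.05), since the study names empirical Bayes statistics and this adjustment, and the script was tested on simulated data. With 3 muscles against 3, an exact permutation test of a single gene cannot go below a two-sided p of 0.1 and was not used. The number of arrays limits the precision.

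The genes and lists were chosen with earlier results of these data known. Every gene that met the name rule was named; values for every array are given for called genes, for genes listed singly in the rule and for the brightest gene of each role, and also for genes whose groups were apart or that a single muscle moved. Of the further lists, called genes with a higher group at 7 or more are named. Nfe2l2, Keap1 and Chac1 were added after their values were seen. Alternatives were another choice of probe, a variance trend, a filter on dim probes, a minimum difference, a replicate block and each muscle left out.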

Additional observations from a re-analysis of the deposited data

How the results depend on the processing

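The calls on Gpx1, Gstm2 and Gss held under every alternative fit that was run, apart from the minimum difference, which Gss does not reach. Gss passed the filter on dim probes only through its AAV8-Prox1 readings, so its call in that fit is no separate support. Choosing the mean of all probes gave the same 8 genes. The probe with the smallest p comes from the same fit and adjustment, so keeping the 8 was fixed in advance. No gene was gained with it. A variance trend with robust estimation gave 9 genes, of which 7 were among the 8 (Gpx4 was lost, Gstm6 and Nqo1 were gained). Leaving out probes that did not reach 7 in at least 3 arrays gave 11 genes, 5 of them higher, with 7 of the 8 kept (Gpx4 was lost, Gpx3, Gstm6, Gstp2 and Nqo1 were gained). Gstm6 met that limit only through its AAV8-mCherry readings, the group where it is high, so its gain is no separate support. A minimum difference of 0.5 left 3 genes.

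With 1 muscle left out, 4 to 7 of the 65 genes were called, 1 to 2 of them higher and 2 to 5 lower. The count was 4 without AAV8-Prox1 replicate 2, 5 without AAV8-Prox1 replicate 1 and 5 without AAV8-mCherry replicate 3. Over the further lists 14 to 21 genes were called, 6 to 10 higher and 6 to 12 lower, and over the array 1246 to 1490, with 700 to 809 higher and 546 to 681 lower.

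With the replicate number as a block, 4 genes were called, 1 higher and 3 lower. Gpx1, Gss and Gstm2 were kept and Gpx3 was gained. Deviations of same-numbered muscles correlated at -0.182, 0.0509 and -0.123 over 10642 probes, and 1 of 3 AAV8-Prox1 arrays correlated best with its own number, and the numbers were not taken to pair the muscles. Over all alternatives, single-gene differences stayed on the same side of the threshold in 384 cases, gained a call in 9 and lost one in 24. All 24 losses fell on the 8 called genes, while most of the 384 cases come from genes that were not called. No called difference changed sign. Background correction from raw signals and the chip as a block were not run, since the raw columns match no sample. The 28 genes under 7 had signals at background, where their levels are not resolved.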
